A study of Mus musculus with 9 samples.

Results

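The genes described here are 10 genes of the bone morphogenetic protein (BMP) and transforming growth factor-beta (TGF-beta) families: the BMP ligands Bmp2, Bmp4 and Bmp7, the TGF-beta ligands Tgfb1, Tgfb2 and Tgfb3, the activin subunit gene Inhba, and the Id genes Id1, Id2 and Id3. They were chosen by symbol, and each of the 10 was found once among the 18484 genes listed for every tumour. RNA from 9 mammary tumours of 8 BlgCre-NeuKI mice was sequenced, with 1 library per tumour. These mice, of a mixed FVB and C57Bl6 background, carry an activated rat Neu cDNA in the endogenous Erbb2 locus behind a floxed stop cassette, together with a Cre transgene driven by the beta-lactoglobulin (Blg) promoter, which is active mainly in luminal cells of the mammary gland. Both alleles were heterozygous, and every tumour, in every group, carried both. Tumours had been classed by the authors as high-amplified or not/low-amplified at the Neu locus, by histotype and by the reproductive history of the mouse.

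The 5 high-amplified tumours were all adenocarcinomas of no special type, AC(NST). MS1155.3 and MS1218.2 arose in parous mice, and MS1163.2, MS1163.1 and MS1213.1 in virgin mice, of which the tumours numbered MS1163 were 2 from 1 animal. The 3 not/low-amplified epithelial tumours, all from parous mice, were the AC(NST) MS1166.1 and the adenosquamous carcinomas (ASQC) MS1349.1 and MS1210.1. The mammary sarcoma MS1156.1, from a parous mouse, was not/low-amplified too. Both ASQC were therefore not/low-amplified and all virgin mice had high-amplified tumours, so amplification, histotype and parity cannot be told apart in these groups. The amplification and histotype comparisons also share tumours, and 1 does not stand as evidence for the other. The sarcoma is a single tumour and entered none of the comparisons tested here, except as 1 alternative setting. The labels give no ages.

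BMPs, TGF-betas and activins are secreted dimers that bring together type I and type II serine/threonine kinase receptors. BMP receptors phosphorylate Smad1, Smad5 and Smad9, TGF-beta and activin receptors phosphorylate Smad2 and Smad3, and both sets enter the nucleus with Smad4. The Id genes are among the best known direct targets of BMP Smads. They encode helix-loop-helix proteins that lack the basic region needed to bind DNA and that hold their basic helix-loop-helix partners away from it. In the mammary gland TGF-beta restrains ductal growth, Id2 is needed for alveolar growth in pregnancy, and BMP ligands pass between the epithelium and the stroma.

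Between 12501225 and 23912429 reads were counted per tumour. Values given below are normalized counts, which for the 8 epithelial tumours are the deposited counts divided by 1 size factor per tumour. At these depths 3 reads correspond to between 2.11 and 4.14 normalized counts, a floor that covers counting error only. Erbb2, the gene of the targeted locus, lay between 5284 and 105019 in the high-amplified tumours, between 1532 and 2783 in the not/low-amplified epithelial tumours, and at 1164 in the sarcoma. The summed level of 7 epithelial markers, such as Krt8 and Epcam, was 30797 to 48784 in the high-amplified tumours, 88561 to 132748 in the not/low-amplified epithelial tumours and 462 in the sarcoma. Krt8, Krt14, Krt19 and Cdh1 were higher in every not/low-amplified epithelial tumour than in any high-amplified one. Epcam, Krt18 and Krt5 overlapped between these groups, and Krt14 alone held 51708 in MS1210.1. The 6 squamous keratinocyte markers summed to 322 in MS1166.1 and up to 22409 in the ASQC, and to between 257 and 918 in the high-amplified tumours. MS1218.2 stood apart from the other high-amplified tumours. Its 7 fibroblast markers summed to 374692 against at most 114497 in the other 4 (and 29032 to 102187 in the not/low-amplified epithelial tumours), its 6 endothelial markers to 12866 against at most 3946 (1975 to 5325), and its 6 measured macrophage markers to 72152 against at most 12040 (4392 to 20046). All 6 endothelial and all 6 macrophage markers were highest in it among the 8 tumours, as were 5 of the 7 fibroblast markers. In the study's droplet PCR, the ASQC MS1349.1 showed no evidence of stop cassette recombination or of amplification. The study's assays of Neu copy number gave different answers for MS1213.1 and MS1218.2. Only MS1218.2 was not above the tumour purity that the study's methods state for its samples, as estimated from this RNA-seq. Counts of genes called or apart are given below with and without it.

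**Figure D1:**
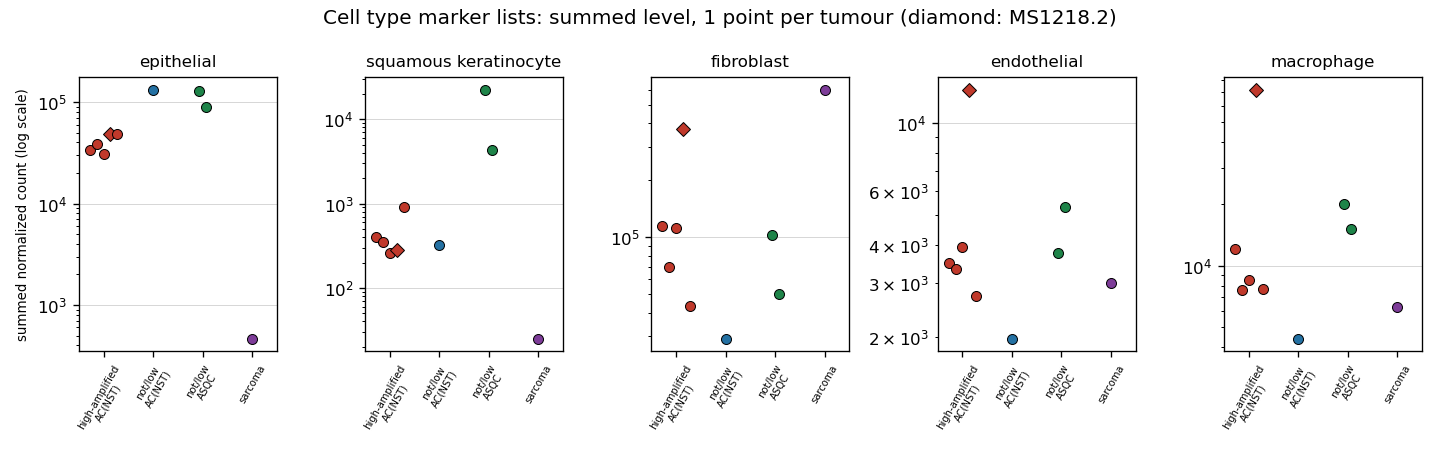
Summed normalized count (log scale) of 5 cell type marker lists, 1 point per tumour, by amplification and histotype; the diamond is MS1218.2. The fibroblast, endothelial and macrophage sums of MS1218.2 (374692, 12866 and 72152) lie above those of the other 7 epithelial tumours, and the epithelial sum of the sarcoma (462) lies below all others.

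The Id genes are similar enough in their coding sequences that their counts depend on reads being told apart, so the stretch in which they are most alike is shown. It covers 41 codons (123 bases) in exon 1 of each gene, on mouse build GRCm38, from GENCODE M21 transcripts. Capitals mark bases that are the same in all 3 genes. 
Id1, chr2:152736512-152736634, forward strand: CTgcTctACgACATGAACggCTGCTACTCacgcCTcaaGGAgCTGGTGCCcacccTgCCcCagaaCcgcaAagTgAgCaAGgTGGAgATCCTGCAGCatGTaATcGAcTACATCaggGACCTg
Id2, chr12:25095786-25095908, reverse strand: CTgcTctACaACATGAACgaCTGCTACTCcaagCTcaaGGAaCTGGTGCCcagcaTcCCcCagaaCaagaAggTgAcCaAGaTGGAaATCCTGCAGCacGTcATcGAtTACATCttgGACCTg
Id3, chr4:136143996-136144118, forward strand: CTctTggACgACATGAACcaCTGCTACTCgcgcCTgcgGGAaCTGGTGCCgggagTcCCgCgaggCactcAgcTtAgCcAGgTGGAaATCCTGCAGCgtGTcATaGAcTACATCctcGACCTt
Of the 123 bases, 77 were the same in all 3 genes, and Id1 and Id2 shared 101, Id2 and Id3 86, and Id1 and Id3 85. The stretch encodes 24 amino acids that are the same in all 3 proteins. The longest run of shared bases was 10, whereas reads were 76 bases long, and no 76-base window of any Id transcript occurred in a transcript of another gene. The same held for Bmp2, Bmp7, Tgfb1 and Inhba. Windows shared with transcripts on the opposite strand made up 7.29% of Tgfb3 (Gm37804 and Gm48008), 0.623% of Bmp4 (Gm15217) and 0.0853% of Tgfb2 (Gm29491). The library kit keeps the strand, but the strand setting used for counting is not given in the sources used here, so reads from these short overlaps cannot be assigned with certainty.

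Levels of the 10 genes were compared with each other per kilobase of exon. By the median of the 8 epithelial tumours, Tgfb3 was the most abundant, at 1132 normalized counts per kilobase, followed by Id2 at 713.0. Id1 followed at 248, Tgfb2 at 201, Id3 at 82.1 and Tgfb1 at 75.1. Inhba at 18.4, Bmp7 at 11.5, Bmp2 at 9.997 and Bmp4 at 6.48 were the least abundant. The ranges over tumours of neighbours in this order overlapped throughout: Tgfb3 spanned 568.2 to 2123 per kilobase and Id2 480 to 1413, and Id2 exceeded Tgfb3 in MS1166.1. Tgfb3 ranked first in the other 7 epithelial tumours. The 3 BMP ligands were therefore transcripts of low abundance in these tumours, and the TGF-beta ligand best represented was Tgfb3, not Tgfb1. In the sarcoma the order differed, with Id3 first at 809 per kilobase, then Tgfb3 at 210, Tgfb2 at 206 and Bmp4 at 158.

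**Figure D2:**
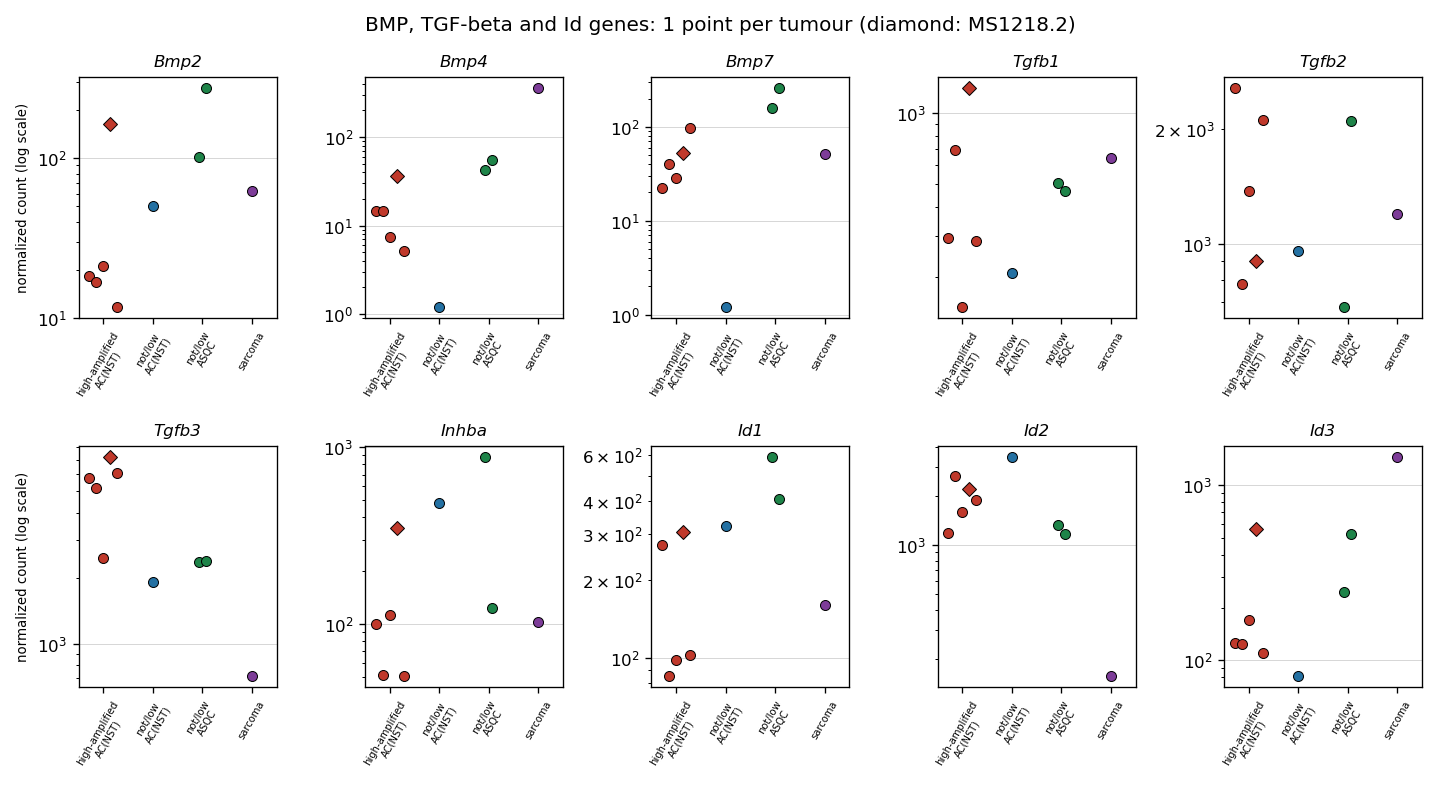
Normalized count (log scale) of each of the 10 genes, 1 point per tumour, in high-amplified AC(NST), the not/low-amplified AC(NST) MS1166.1, not/low-amplified ASQC and the sarcoma; the diamond is MS1218.2. Tgfb3 is higher in all high-amplified tumours than in the not/low-amplified epithelial tumours, Id1 is lower in all of them, and Bmp4 and Bmp7 sit at 1.19 in MS1166.1.

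To ask whether these genes differ with amplification of the Neu locus, the 5 high-amplified tumours were compared with the 3 not/low-amplified epithelial tumours. The Tgfb3 level averaged 2.42-fold higher in high-amplified tumours and the Id1 level 2.51-fold lower, and neither passed the test. None of the 10 genes was called, a call being an adjusted p-value under 0.05 and more than a 2-fold difference in edgeR's quasi-likelihood test across 14007 genes. Over all genes tested, 0.435% were called higher and 0.485% lower in high-amplified tumours (0.921% in either direction), so a count of 0 in 10 lies near the background. At an unadjusted p under 0.05, 3 of the 10 genes passed, namely Tgfb3 (higher in high-amplified tumours, as were 11.8% of all genes at this level) and Inhba and Id1 (lower, as were 11.0%). DESeq2 passed the same 3 at this level (11.3% of all genes higher, 10.3% lower), and edgeR without MS1218.2 passed 4, with Bmp2 added as lower (16.8% higher, 15.4% lower). DESeq2 called 1 of the 10, Tgfb3, where it called 5.0% of all genes higher and 3.8% lower, and limma called none. The DESeq2 shares are of 18035 genes, without the filter on low counts, and are not comparable with those of edgeR. The groups did not overlap for Tgfb3, where all high-amplified tumours lay above the others, as for 7.55% of all genes, and for Id1, where all lay below, as for 8.04%. Without MS1218.2, edgeR called 2 of the 10, Bmp2 and Inhba, both lower in high-amplified tumours, where 3.65% of all genes were called lower and 5.44% higher. Without it, Tgfb3 again lay above (16.5% of all genes), and Bmp2, Inhba and Id1 lay below without overlap (14.1%). The median log2 fold change of the 10 genes was -0.73, against 0.02 for all genes. The p-values measure the spread between these tumours, 2 of which came from 1 mouse.

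To ask whether they differ with histotype, the 2 ASQC were compared with the 6 AC(NST). The BMP ligand levels were the furthest apart, with fitted levels of Bmp2 4.02-fold, Bmp4 3.64-fold and Bmp7 5.19-fold higher in ASQC, and none of them passed the test. None of the 10 genes was called by edgeR's quasi-likelihood test, as against 0.221% of all genes called higher and 0.0143% lower in ASQC. Bmp7 and Id1 passed an unadjusted p under 0.05, both higher in ASQC, as were 4.38% of all genes at this level, and none passed it as lower, as 4.33% did. At this level DESeq2 passed 3 of the 10 as higher, with Bmp2 added (4.45% of all genes), and edgeR without MS1218.2 passed 5 as higher, Bmp2, Bmp4, Bmp7, Id1 and Id3 (6.06%). Neither passed any as lower (6.58% and 7.28% of all genes). Bmp7 and Id1 passed in each of these fits, and the count was larger without MS1218.2. DESeq2, which called 1.67% of 18001 genes higher and 1.21% lower, and limma called none of the 10 either. Both ASQC lay above all 6 AC(NST) for 3 of the 10 genes, Bmp4, Bmp7 and Id1, and this was so for 5.3% of all genes. No member lay lower in both ASQC than in all AC(NST), as 4.98% of all genes did. Without MS1218.2 the ASQC lay above for 5 of the 10, with Bmp2 and Id3 added, against 9.08% of all genes, and below for none, against 9.72%. EdgeR still called none of the 10, where it called 0.0507% of all genes higher and 0.0% lower. The median log2 fold change of the 10 genes was 1.17, against -0.08 for all genes. With 2 ASQC, whose squamous markers summed to 22409 (MS1210.1) and 4279 (MS1349.1), the spread within this histotype rests on 1 pair of tumours.

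**Figure D3:**
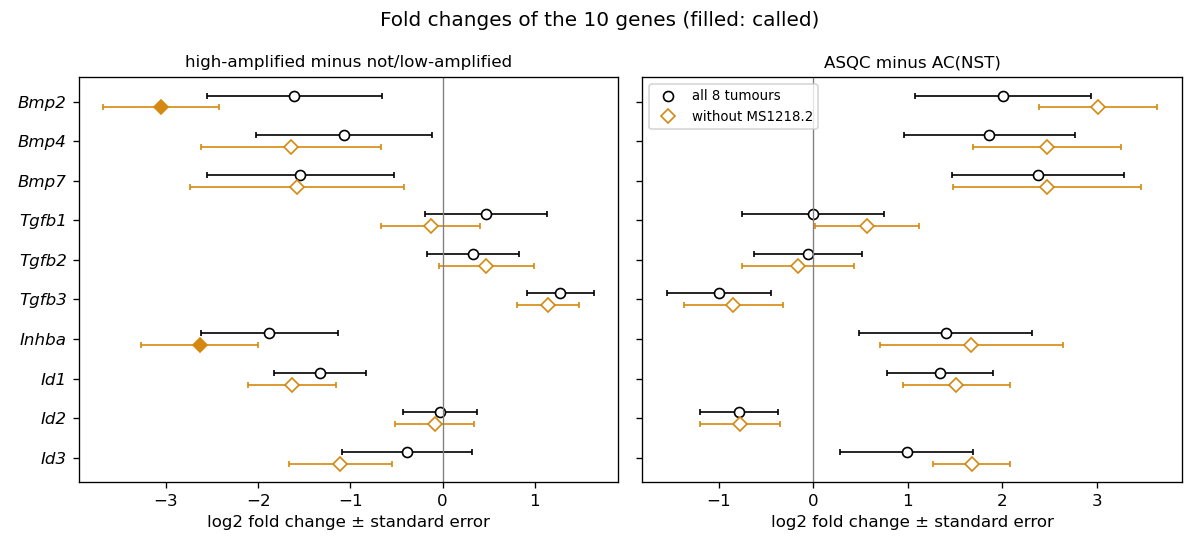
Log2 fold change ± standard error (edgeR) of each of the 10 genes for high-amplified minus not/low-amplified tumours (left) and ASQC minus AC(NST) (right), with all 8 tumours (black circles) and without MS1218.2 (orange diamonds); filled symbols passed the call. Without MS1218.2 the amplification estimates of Bmp2 and Inhba move to -3.05 and -2.63, the 2 filled symbols.

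Bmp2 (ENSMUSG00000027358, chr2:133552159-133562885), a BMP ligand best known for bone and heart formation, was low in most high-amplified tumours. Its normalized counts were 11.6 in MS1155.3, 21.1 in MS1163.2, 16.8 in MS1163.1 and 18.3 in MS1213.1, but 162.9 in MS1218.2. They were 49.96 in MS1166.1, 274.7 and 101.3 in the ASQC MS1349.1 and MS1210.1, and 62.1 in the sarcoma. Thus 4 of the 5 high-amplified tumours lay below every not/low-amplified tumour, and MS1218.2 lay within their range, at 9.29-fold the median of the other 4. Since these are bulk samples, fewer cells of a type that makes a transcript and less of that transcript per cell cannot be told apart, here and for every gene below. The means were 46.1 ± 65.4 (SD, n = 5) in high-amplified and 142.0 ± 118 (n = 3) in not/low-amplified tumours, and 188 ± 123 (n = 2) in ASQC. The log2 fold change by amplification was -1.61 ± 0.94 (SE; adjusted p = 0.335, edgeR) with all 8 tumours and -3.05 ± 0.63 (adjusted p = 0.0288) without MS1218.2. Adjusted p ran from 0.0288 to 0.984 over the 18 alternatives, and the estimate stayed negative in all 18. Because the macrophage, fibroblast and endothelial markers were also highest in MS1218.2, their values stand beside this result, and their part in it was not tested. By histotype the log2 fold change was 2.01 ± 0.93 (adjusted p = 0.590, edgeR).

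Bmp4 (ENSMUSG00000021835, chr14:46383520-46390669), a ligand often made by mesenchyme, was the least abundant of the 10 genes in the epithelial tumours. It stood at 5.15 normalized counts in MS1155.3, 7.46 in MS1163.2, 14.7 in MS1163.1, 14.4 in MS1213.1 and 36.1 in MS1218.2. In MS1166.1 a single read was counted, which is 1.19 normalized counts with an exact Poisson 95% interval of 0.0301 to 6.63. The ASQC held 42.9 (MS1210.1) and 54.8 (MS1349.1), above all 6 AC(NST). The sarcoma held 356.0, 6.50-fold above the highest epithelial tumour and 24.4-fold the epithelial median. The amplification groups overlapped, since the not/low-amplified group held both the lowest and the highest values, and the log2 fold change was -1.07 ± 0.96 (adjusted p = 0.525, edgeR). The histotype log2 fold change was 1.86 ± 0.90 (adjusted p = 0.601, edgeR), and the 2 ASQC averaged 48.8 ± 8.41 (SD) against 13.2 ± 12.4 in the 6 AC(NST). Fibroblast markers summed to 601473 in the sarcoma and 374692 in MS1218.2, the tumours with the highest Bmp4 level overall and the highest among AC(NST). Both ASQC held more Bmp4 than MS1218.2, at lower fibroblast sums of 102187 (MS1210.1) and 50020 (MS1349.1). MS1213.1 held less Bmp4 than either ASQC, at a fibroblast sum of 114497. The part of the fibroblast markers in these levels was not tested.

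Bmp7 (ENSMUSG00000008999, chr2:172868012-172940321), a ligand made by many epithelia including that of the kidney, had the widest range of the 10 genes, 217-fold between the lowest and the highest epithelial tumour. It stood at 96.6 in MS1155.3, 28.6 in MS1163.2, 39.9 in MS1163.1, 22.1 in MS1213.1 and 52.8 in MS1218.2. MS1166.1 again held a single read, or 1.19 normalized counts (0.0301 to 6.63, exact Poisson 95% interval). The ASQC MS1210.1 and MS1349.1 held 160 and 259, above every AC(NST), and the sarcoma held 51.0, inside the epithelial range. Within the not/low-amplified group, therefore, the lone AC(NST) lay below all high-amplified tumours and both ASQC lay above them. The log2 fold change was 2.38 ± 0.91 by histotype (adjusted p = 0.497, edgeR) and -1.54 ± 1.02 by amplification (adjusted p = 0.384). With histotype as a covariate, which sets the high-amplified tumours against MS1166.1 alone, the amplification estimate turned to 5.24 (adjusted p = 0.0937, edgeR). This estimate rests on 1 tumour, and adjusted p ran from 0.0937 to 0.982 over the 18 alternatives.

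Tgfb1 (ENSMUSG00000002603, chr7:25687002-25705077), the TGF-beta ligand most often studied in immune regulation and fibrosis, overlapped between groups under both labels. Normalized counts were 286 in MS1155.3, 149 in MS1163.2, 695 in MS1163.1, 294 in MS1213.1 and 1273 in MS1218.2. They were 464 in MS1349.1, 506 in MS1210.1, 209 in MS1166.1 and 640 in the sarcoma. The not/low-amplified values and both ASQC fell inside the range of the high-amplified tumours, which ran from the lowest to the highest of the 8, with the 2 tumours of 1 mouse, MS1163.1 and MS1163.2, on either side of the median. Log2 fold changes were 0.47 ± 0.66 by amplification (adjusted p = 0.697) and -0.00 ± 0.75 by histotype (adjusted p = 0.9997, edgeR). Without MS1218.2, where Tgfb1 was 4.39-fold the median of the other high-amplified tumours, they were -0.13 ± 0.54 and 0.57 ± 0.55, so the direction depended on this tumour.

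Tgfb2 (ENSMUSG00000039239, chr1:186622792-186705989), a ligand with broad roles in development, spanned 3.78-fold over the 8 tumours, a narrow range among these ligands, like that of Tgfb3 (3.74-fold). It stood at 2120 in MS1155.3, 1372 in MS1163.2, 783 in MS1163.1, 2565 in MS1213.1 and 902 in MS1218.2. It stood at 2099 in MS1349.1, 679 in MS1210.1, 954 in MS1166.1 and 1195 in the sarcoma. The groups overlapped, and the ASQC lay toward opposite ends of the range. The means were 1548 ± 774 (SD, n = 5) in high-amplified and 1244 ± 753 (n = 3) in not/low-amplified tumours. Log2 fold changes were 0.33 ± 0.50 by amplification (adjusted p = 0.720) and -0.06 ± 0.57 by histotype (adjusted p = 0.987, edgeR), neither beyond the spread between tumours. Tgfb2 was the only member that MS1218.2 held below the median of the other high-amplified tumours, at 0.516 of it.

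Tgfb3 (ENSMUSG00000021253, chr12:86056745-86079041), a ligand that is strongly induced in mammary epithelium after weaning, stood above all other tumours in each of the 5 high-amplified ones. It stood at 6049 in MS1155.3, 2483 in MS1163.2, 5174 in MS1163.1, 5758 in MS1213.1 and 7182 in MS1218.2. The not/low-amplified epithelial tumours were close to each other, at 2398 in MS1349.1, 2372 in MS1210.1 and 1922 in MS1166.1, and the sarcoma held 709. The groups did not overlap, but the lowest high-amplified tumour, MS1163.2, lay close above the highest ASQC, and the other 4 lay well clear. Means were 5329 ± 1751 (SD, n = 5) against 2231 ± 268 (n = 3). The log2 fold change was 1.27 ± 0.36 (adjusted p = 0.0976, edgeR), and DESeq2 gave 1.26 ± 0.38 (adjusted p = 0.0132). Adjusted p ran from 0.0132 to 0.248 over the 18 alternatives, and all 18 estimates were positive, between 1.15 and 1.59. Without MS1218.2 the log2 fold change was 1.15 ± 0.34 (adjusted p = 0.0619, edgeR). MS1166.1, an AC(NST), lay with the ASQC and below them, and by histotype the log2 fold change was -0.9997 ± 0.55 (adjusted p = 0.642, edgeR).

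Inhba (ENSMUSG00000041324, chr13:16011851-16031621) encodes the beta A subunit, which pairs with itself as activin A or with the alpha subunit as inhibin A. It stood at 50.2 in MS1155.3, 112 in MS1163.2, 51.4 in MS1163.1, 100.2 in MS1213.1 and 348 in MS1218.2. MS1166.1 held 483, MS1210.1 878 and MS1349.1 123, and the sarcoma held 102. The 4 high-amplified tumours other than MS1218.2 lay below all 3 not/low-amplified tumours, with the ASQC MS1349.1 just above the highest of them. The means were 132 ± 124 (SD, n = 5) against 495 ± 378 (n = 3). The log2 fold change by amplification was -1.88 ± 0.74 (adjusted p = 0.173, edgeR) with all 8 tumours and -2.63 ± 0.63 (adjusted p = 0.0396) without MS1218.2. Adjusted p ran from 0.0396 to 0.520 over the 18 alternatives, all of them negative in sign. As for Bmp2, stromal and macrophage markers were highest in MS1218.2 and their part was not tested. The 2 ASQC were far apart, and the histotype log2 fold change was 1.40 ± 0.91 (adjusted p = 0.696, edgeR).

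Id1 (ENSMUSG00000042745, chr2:152736251-152737410), an Id gene that responds quickly to BMPs, was lower in every high-amplified tumour than in any not/low-amplified epithelial tumour. It stood at 103.0 in MS1155.3, 98.2 in MS1163.2, 85.0 in MS1163.1, 271 in MS1213.1 and 305 in MS1218.2. MS1166.1 held 321, MS1210.1 589, MS1349.1 408 and the sarcoma 160. The groups did not overlap, although MS1218.2 and MS1166.1 lay next to each other, and the ASQC were the highest of the 8 tumours. Means were 172 ± 106 (SD, n = 5) against 439 ± 137 (n = 3), and 499 ± 128 in the 2 ASQC against 197 ± 113 in the 6 AC(NST). Log2 fold changes were -1.33 ± 0.50 by amplification (adjusted p = 0.158) and 1.34 ± 0.56 by histotype (adjusted p = 0.536, edgeR). The sign held in all 18 alternatives by amplification and all 17 by histotype, and none of them was called, with adjusted p from 0.0603 to 0.508 and from 0.234 to 0.9998.

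Id2 (ENSMUSG00000020644, chr12:25093799-25097140), the Id gene tied to alveolar growth in the mammary gland, was the most abundant Id gene per kilobase in all 8 epithelial tumours. It stood at 1892 in MS1155.3, 1585 in MS1163.2, 2645 in MS1163.1, 1179 in MS1213.1 and 2208 in MS1218.2. MS1166.1 held 3445, the highest value, and the ASQC held 1316 (MS1210.1) and 1171 (MS1349.1). The sarcoma held 156, 7.51-fold below the lowest epithelial tumour. Both ASQC lay at the low end of the epithelial range, overlapping with MS1213.1, and MS1166.1 lay above all other tumours. The log2 fold change by amplification was -0.03 ± 0.40 (adjusted p = 0.971, edgeR) and that by histotype -0.79 ± 0.41 (adjusted p = 0.625). The amplification estimate changed sign in 8 of 18 alternatives and the histotype estimate in none of 17. Epithelial markers summed to 462 in the sarcoma, and their part in its low Id2 level was not tested.

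Id3 (ENSMUSG00000007872, chr4:136143497-136145755), which like Id1 is a BMP target and is also expressed in vessels, was highest in MS1218.2 among the 8 tumours. It stood at 109 in MS1155.3, 169 in MS1163.2, 124 in MS1163.1, 125 in MS1213.1 and 562 in MS1218.2. MS1166.1 held 80.9, the lowest value, whereas the ASQC held 245 (MS1210.1) and 529 (MS1349.1). The sarcoma held 1449, 2.58-fold above the highest epithelial tumour and 9.85-fold the epithelial median. Without MS1218.2 both ASQC lay above all remaining AC(NST), and with it the groups overlapped. The log2 fold change by histotype was 0.99 ± 0.70 (adjusted p = 0.717, edgeR) with all 8 tumours and 1.68 ± 0.41 (adjusted p = 0.218) without MS1218.2. By amplification it was -0.38 ± 0.70 (adjusted p = 0.771) and -1.11 ± 0.56 (adjusted p = 0.211). Endothelial markers in MS1218.2 were 3.67-fold the median of the other epithelial tumours. Id3 in it was 4.51-fold the median of the other high-amplified tumours, a different reference. The part of the endothelial markers in this Id3 level was not tested. In the sarcoma the endothelial sum of 3008 lay inside the range of the epithelial tumours.

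The levels of the Id genes were ordered differently over the tumours, which is given as a description, since differences between genes were not tested. Id1 was lower in all high-amplified tumours and highest in the ASQC, Id3 was higher in both ASQC than in all AC(NST) only once MS1218.2 was left out, and Id2 was lowest in both ASQC and MS1213.1. In MS1166.1, the lone not/low-amplified AC(NST), 4 of the 10 genes took their lowest value of the 8 tumours (Bmp4, Bmp7, Tgfb3 and Id3), where 21.5% of all genes did. In the same tumour Id2 took its highest value, as did 22.3% of all genes. The ASQC MS1349.1 held the highest value of all 3 BMP ligands, where it held the highest value for 8.16% of all genes, and the ASQC MS1210.1 held that of Inhba and Id1 (8.71%). MS1218.2 held the highest value of Tgfb1, Tgfb3 and Id3, as it did for 20.0% of all genes.

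The sarcoma was set beside the 8 epithelial tumours, as a description of 1 tumour with no test. Bmp4 and Id3 lay above all 8 in it, as did 21.3% of all genes, and Tgfb3 and Id2 lay below all 8, as did 21.2%. Tgfb3 stood 5.40-fold and Id2 11.2-fold below the epithelial median. The other 6 genes lay inside the epithelial range, at between 0.556 (Id1) and 1.75 (Bmp2) of the median. All 10 genes kept these positions when values were scaled as CPM with TMM factors over the 9 tumours. The squamous markers Krt6a and Ivl and the T cell markers Cd3d, Cd3g and Cd8a were at 0 in this tumour, the epithelial markers summed to 462, and the 3 skeletal muscle markers summed to 11193, against at most 2267 elsewhere.

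The rest of the pathway was followed with lists of 95 other genes, of which 92 were listed in the files and 79 passed the filter on low counts (10 or more in 3 or more of the 8 tumours). By amplification none of the 79 was called by edgeR's quasi-likelihood test, 6 were higher and 7 lower at an unadjusted p under 0.05, and the median log2 fold change was 0.04, against 0.02 for all genes. Of all genes 11.8% were higher and 11.0% lower at this level. Of the 89 pathway genes that DESeq2 tested it called 4 higher and 3 lower, where it called 5.0% and 3.8% of all genes, and limma called 1. Without MS1218.2 edgeR called 1 of 77 higher (Tgfbr2) and 2 lower (Gdf15 and Sostdc1), where 5.44% and 3.65% of all genes were called. In this fit 8 of the 77 were higher and 9 lower at an unadjusted p under 0.05, as were 16.8% and 15.4% of all genes. By histotype edgeR called 1, the BMP antagonist gene Grem1, 5 were higher and 2 lower in ASQC at an unadjusted p under 0.05, and the median was -0.14, against -0.08 for all genes. Of all genes 4.38% were higher and 4.33% lower at this level. DESeq2 called 3 higher (Grem1, Fst and Id4) and 1 lower (Hey1) of 91, against 1.67% and 1.21% of all genes, and limma called none. Without MS1218.2 edgeR called none of 77 by histotype. In this fit 9 were higher and 2 lower at an unadjusted p under 0.05, as were 6.06% and 7.28% of all genes. With all 8 tumours, edgeR called a gene only in the list of secreted antagonists, of which 12 of 15 were tested. With all 8 tumours, edgeR called none of the 14 receptors and none of the 6 signal-transducing Smads in either comparison, and DESeq2 called 1 of them, the receptor gene Tgfbr2, by amplification.

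**Figure D4:**
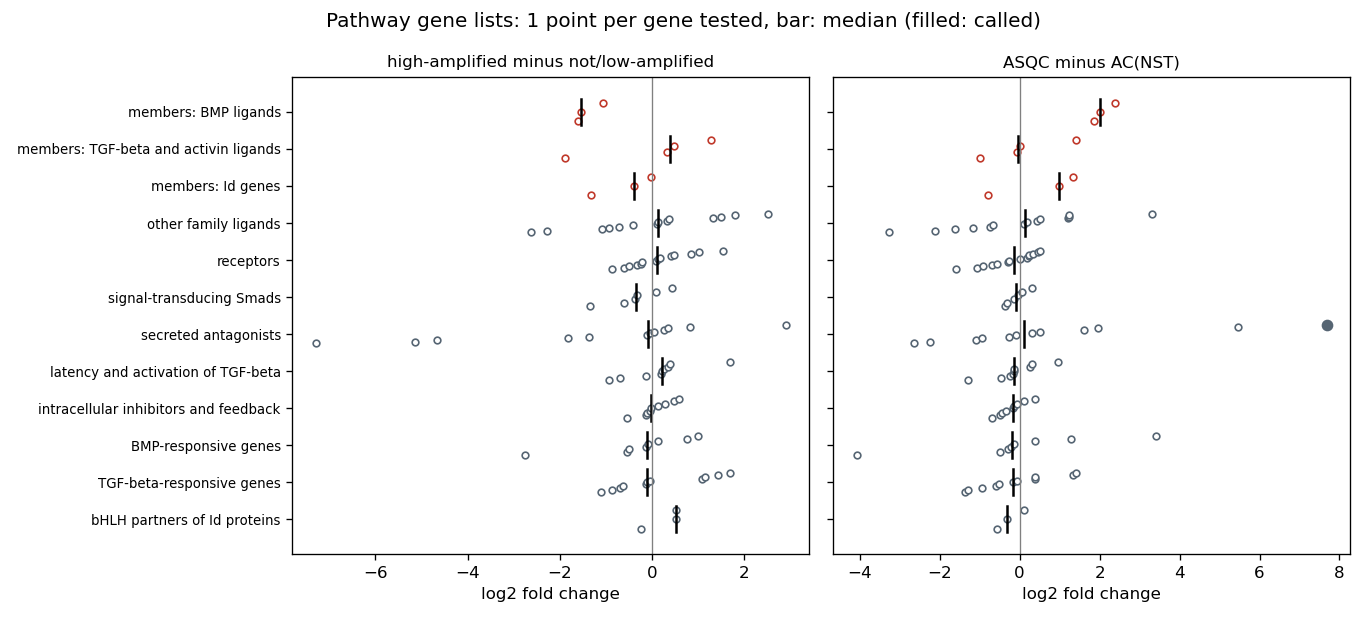
Log2 fold change (edgeR) of each tested gene of the pathway lists for high-amplified minus not/low-amplified tumours (left) and ASQC minus AC(NST) (right), 1 point per gene; red points are the 10 genes described here, bars are list medians and the filled point passed the call. Grem1, at 7.68 in ASQC minus AC(NST), is the only filled point.

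Grem1, whose product binds and blocks BMP2, BMP4 and BMP7, was abundant in 1 ASQC. It stood at 1990 in MS1210.1 but 39.5 in MS1349.1, against 12.5 in MS1213.1, 8.33 in MS1166.1, 3.73 in MS1163.2, 3.15 in MS1163.1, 0.926 in MS1218.2 and 0 in MS1155.3 and the sarcoma. Both ASQC lay above all AC(NST), and it rose in ASQC by a log2 fold change of 7.68 ± 1.20 (adjusted p = 0.0413, edgeR). The call did not hold widely. Without MS1163.1, MS1163.2, MS1218.2 or MS1155.3 adjusted p was 0.109, 0.136, 0.109 and 0.0737, without MS1166.1 it was 0.0446, and without MS1213.1, MS1210.1 or MS1349.1 the gene did not pass the filter. Over the 14 alternatives that could be fitted, it was called in 6, with adjusted p from 6.76e-08 to 0.387. By amplification the log2 fold change was -7.29 ± 1.64 (adjusted p = 0.0659, edgeR).

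Among the other antagonists, Sostdc1, whose product blocks BMPs and also acts on the Wnt pathway, stood at 121, 302 and 389 in MS1210.1, MS1349.1 and MS1166.1 and at most at 19.3 in the high-amplified tumours. Its log2 fold change by amplification was -5.13 ± 1.10 (adjusted p = 0.0587, edgeR), and it was called by limma, by DESeq2, without a filter on low counts, and by edgeR without MS1218.2. Chrdl1 and Chrdl2, which encode chordin-like BMP antagonists, had log2 fold changes of 2.91 ± 1.13 by amplification (adjusted p = 0.171) and 5.46 ± 1.72 by histotype (adjusted p = 0.374, edgeR). DESeq2 called Chrdl1 (adjusted p = 0.0249), and the Chrdl2 value rests on MS1349.1, at 530 normalized counts, since MS1210.1 held 0. Fst, which encodes the activin antagonist follistatin, stood at 728 and 381 in the ASQC and between 65.1 and 215 in the AC(NST), without overlap. Its log2 fold change by histotype was 1.97 ± 0.48 (adjusted p = 0.220, edgeR), and DESeq2 called it (adjusted p = 0.0180).

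Of the receptors, Tgfbr2, the type II receptor of TGF-beta, was higher in all high-amplified tumours (6160 to 14932, the latter in MS1218.2) than in the not/low-amplified ones (1909 to 3734). Its log2 fold change was 1.54 ± 0.41 (adjusted p = 0.0862, edgeR), and it was called by DESeq2 and by edgeR without MS1218.2. The sarcoma held 21595. Bmpr1a and Acvr1, type I receptors for BMPs, had log2 fold changes by amplification of -0.60 ± 0.30 (adjusted p = 0.266) and -0.49 ± 0.26 (adjusted p = 0.293, edgeR). By histotype the smallest p-values among the receptors were those of Acvrl1 (-0.92 ± 0.52), Bmpr1b (-1.60 ± 0.94) and Tgfbr2 (-1.07 ± 0.65), with adjusted p of 0.647 to 0.670 (edgeR). Of the Smads, Smad1, which carries BMP signals, had a log2 fold change by amplification of -0.60 ± 0.24 (adjusted p = 0.181, edgeR), and Smad3, which carries TGF-beta and activin signals, one of 0.43 ± 0.29 (adjusted p = 0.392). By histotype the 6 Smads had adjusted p of 0.848 or more.

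Among genes known to respond to these pathways, Id4, the Id gene outside the set of 10, stood at 217 and 240 in the ASQC and at most at 58.0 in the 6 AC(NST). Its log2 fold change by histotype was 3.42 ± 0.67 (adjusted p = 0.110) and by amplification -2.75 ± 0.89 (adjusted p = 0.123, edgeR), and DESeq2 called it in both comparisons. Hey1, a transcriptional repressor that responds to BMP and Notch, stood at 108 and 180 in the ASQC and between 504 and 5661 in the AC(NST), without overlap, with a log2 fold change of -4.08 ± 0.96 (adjusted p = 0.202, edgeR), and DESeq2 called it (adjusted p = 1.77e-05). The BMP feedback genes Smad6 and Smad7 and the decoy receptor gene Bambi overlapped between groups in both comparisons. Of the TGF-beta-responsive genes, Ltbp2, which encodes a latent TGF-beta binding protein of the matrix, had a log2 fold change by amplification of 1.70 ± 0.48 (adjusted p = 0.0958, edgeR) and was called by DESeq2. Ctgf had one of -1.11 ± 0.75 (adjusted p = 0.394, edgeR). By histotype, Tgfbi and Snai2 had log2 fold changes of 1.40 ± 0.69 and 1.34 ± 0.63 (adjusted p = 0.606 and 0.595, edgeR). With all 8 tumours, edgeR called none of the 11 TGF-beta-responsive and 8 BMP-responsive genes tested, while DESeq2 called Ltbp2, Id4 and Hey1 as given above. Of the E proteins that Id proteins bind, Tcf4 had a log2 fold change by amplification of 0.52 ± 0.24 (adjusted p = 0.230, edgeR) and Tcf12 one of 0.53 ± 0.29 (adjusted p = 0.305).

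Of the other ligands of the family, 14 of 26 passed the filter. With all 8 tumours edgeR called none of them, DESeq2 called Amh and Gdf5 by amplification, and edgeR called Gdf15 as lower in high-amplified tumours without MS1218.2 (adjusted p = 0.0478). Amh, which encodes anti-Müllerian hormone, was low throughout, at 7.46 to 17.3 in high-amplified and 0.731 to 4.76 in not/low-amplified tumours, without overlap, with a log2 fold change of 2.52 ± 0.78 (adjusted p = 0.113 with edgeR, 0.0443 with DESeq2). Both ASQC values of Amh, 0.731 in MS1349.1 and 1.41 in MS1210.1, lay below the level of 3 reads (2.19 and 2.11). Gdf5, a ligand of joint and limb development, stood at 9.94 to 116 in high-amplified and 170 to 266 in not/low-amplified tumours, again without overlap (-2.28 ± 0.77, adjusted p = 0.132 with edgeR, 0.0293 with DESeq2). Lefty1, an inhibitor of Nodal, had a log2 fold change of 1.79 ± 0.66 (adjusted p = 0.153, edgeR). Of the genes that hold TGF-beta latent or activate it, Itgb6, a subunit of an integrin that activates TGF-beta, had log2 fold changes of -0.93 ± 0.46 by amplification (adjusted p = 0.266) and 0.95 ± 0.52 by histotype (adjusted p = 0.641, edgeR). Smurf1, a ubiquitin ligase that turns over BMP Smads, had one of 0.59 ± 0.21 by amplification (adjusted p = 0.146, edgeR).

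The genes whose levels across the 8 epithelial tumours were most like those of each member were listed by Pearson's r of log2(normalized count + 1), out of 14006 other genes. With 8 points that share scaling and depth, and with so many genes to choose from, high values of r are given as a description only. For Bmp2 they were Pnp (r = 0.979) and Tmem19 (0.968), for Bmp4 Lipk (0.991) and Il33 (0.969), and for Bmp7 Amdhd1 (0.968) and H2-DMb2 (0.965). For Tgfb1 they were Ppp6r1 (0.980) and Hagh (0.942), for Tgfb2 Txnrd2 (0.947) and Vwa5a (0.897), and for Tgfb3 Mxd4 (0.991) and Il17re (0.989). For Inhba they were Tmem43 and Capn2 (both 0.961), for Id1 Mmp8 (0.977) and Coro1b (0.965), for Id2 Tmem219 (0.974) and Psrc1 (0.971), and for Id3 B4galt5 (0.972) and Hhex (0.961). No member was among the 2 genes most like another. Among the 10 genes themselves, the most alike were Bmp4 and Id3 (r = 0.849) and Bmp2 and Id3 (0.834). Bmp2 and Id3 share their 2 highest tumours, MS1218.2 and MS1349.1. Bmp4 and Id3 share their lowest tumour, MS1166.1, where the Bmp4 value is a single read. Tgfb2 and Id2 were like no other member, with highest r of 0.205 and 0.0706.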

How the data were processed

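RNA-seq of snap-frozen mammary tumours was analysed, 1 library per tumour. According to the study's methods, ribosomal RNA was removed, strand-specific libraries were sequenced in pairs, and reads were aligned with STAR to mouse build GRCm38, with unique positions only, and counted per gene with HTSeq-count. The versions of these tools are not given in the sources used here. For all 9 tumours the authors deposited counts, whole reads per gene. For the 8 epithelial tumours they also deposited a signal, the same counts divided by 1 size factor per tumour (0.776 to 1.42). For the sarcoma, counts were divided here by 0.725, its median ratio to the geometric means of the other 8. All 10 members passed the filter below, and their choice and that of all lists was made with earlier results of these data known.

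Counts were tested with edgeR 4.0.16 under R 4.3.3 (TMM scaling, glmQLFit and glmQLFTest, Benjamini-Hochberg adjustment over all genes tested), on the 14007 genes that held 10 or more counts in 3 or more of the 8 tumours. Genes were called at an adjusted p-value under 0.05 with more than a 2-fold difference. High-amplified tumours were compared with not/low-amplified, and ASQC with AC(NST), without covariates. DESeq2 1.42.0, limma 3.58.1 (pseudocount 1), other filters and scalings, covariates, 1 replicate for the tumours of 1 mouse, and each tumour left out were the alternatives. DESeq2 was run without the filter on low counts. Its shares of all genes are of the 18035 genes with a p-value by amplification and the 18001 by histotype. On simulated counts of 14007 genes with 200 changed by a log2 fold change of 2, edgeR recovered 54 by amplification and 9 by histotype, and 176 and 159 at a log2 fold change of 4. Members, every gene called and, in each list, the 3 genes with the smallest p in each comparison were named, except 1 gene that is not reported here, and Erbb2, Smad6 and Gdf15 outside this rule, after their values were seen. Cell type markers were summed as normalized counts. Lengths and positions came from GENCODE M21. Ccn2 and Emr1 are listed under their other symbols, Ctgf and Adgre1, and Gdf1, Inhbc, Trac and Acta1 were not analysed here.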

Additional observations from a re-analysis of the deposited data

Results flagged for a closer look

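All 5 flags came from MS1218.2, out of 20 combinations of a gene and a group examined with Dixon's test at the 95% level. The test was run on normalized counts, not on their logarithms. Its rate of about 1 in 20 groups flagged by chance assumes normally distributed values, so it may not hold here. The 5 high-amplified tumours are also among the 6 AC(NST), so the combinations are not independent. Bmp2 and Id3 were flagged in both groups, by the same value each time. Among the 5 high-amplified tumours, MS1218.2 was far above the others for Bmp2 (162.9 normalized counts), Inhba (348.1) and Id3 (561.9). Its gap to the next tumour took 0.937, 0.793 and 0.868 of the whole range, against a critical value of 0.71. Among the 6 AC(NST) it was again far above the others for Bmp2 (162.9, a gap of 0.746 of the range) and Id3 (561.9, a gap of 0.817), against a critical value of 0.625. Inhba was not outside the range there, since MS1166.1 held more. In the same tumour, marker sums were set against the median of the other epithelial tumours, both high-amplified and not/low-amplified. The macrophage markers stood at 8.50-fold, the fibroblast markers at 5.37-fold and the endothelial markers at 3.67-fold this median. The epithelial markers of MS1218.2, at 48764, lay inside the range of the high-amplified tumours. The part of these marker lists in the 3 values was not tested.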

How the results depend on the processing

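The number of genes called, over all genes, depended on the method. By amplification, 129 genes were called over all genes, against 1587 with DESeq2, 229 without a filter, 31 with the tumours of 1 mouse summed, 0 with parity as a covariate, 3 with the sarcoma included, and 1 to 1255 with each tumour left out. Of the 10 members 0 were called, against 1 with DESeq2 and 0 to 2 with each tumour left out, and of the pathway genes 0, against 7 with DESeq2, 1 with limma, 1 without a filter and 0 to 3 with each tumour left out. By histotype, 33 genes were called, against 518 with DESeq2, 14 with limma, 171 without a filter, 87 at a mean count of at least 50, 18 with the tumours of 1 mouse summed, 2 with parity and 0 with amplification as a covariate, and 4 to 84 with each tumour left out. The pathway count of 1 became 4 with DESeq2, 2 without a filter, 0 with limma, with the tumours of 1 mouse summed and with either covariate, and 0 to 1 with each tumour left out, and the count of members stayed at 0. Without MS1218.2, an alternative chosen after seeing the data, the members whose groups did not overlap went from 2 to 4 by amplification and from 3 to 5 by histotype. The cause of these shifts was not tested.

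Of the members' estimates under the alternatives, 29 turned in sign and 3 passed the call (Tgfb3 with DESeq2, Bmp2 and Inhba without MS1218.2). By amplification, the log2 fold change of Id2 turned to 0.071 with limma, 0.016 at a mean count of at least 50, 0.020 with upper-quartile scaling, 0.086 with parity as a covariate and 0.35 with the sarcoma included, and ran from -0.29 to 0.62 with each tumour left out. That of Id3 turned to 0.25 with parity and 1.48 with histotype as a covariate and ran from -1.11 to 0.44, Bmp4 turned to 3.64 and Bmp7 to 5.24 with histotype as a covariate, and Tgfb1 ran from -0.13 to 0.71. By histotype, Tgfb1, at -0.00, turned to 0.00106 with DESeq2, 0.41 with limma, 0.0054 without a filter, 0.000674 with median-of-ratios scaling and 1.26 with amplification as a covariate and ran from -0.19 to 0.57. Tgfb2 turned to 0.077 with parity and 0.59 with amplification as a covariate and ran from -1.10 to 0.51, Tgfb3 turned to 0.36 with amplification as a covariate, and Inhba ran from -0.68 to 2.21. The fits with histotype or amplification as a covariate rest on MS1166.1 alone in 1 arm, those with parity on the parous tumours, and leaving out either ASQC leaves 1, assumed to vary like the AC(NST). At a mean count of at least 50 Bmp4 gave no value. Ranked per gene rather than per kilobase, Tgfb1 moved from 6 to 4, Tgfb2 from 4 to 3, Id1 from 3 to 5 and Id3 from 5 to 6. No paired analysis was possible because the replicate numbers only name tumours and no label ties a high-amplified tumour to a not/low-amplified one.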
